A study of Bruguiera gymnorhiza with 19 samples.

Results

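The set described here holds 80 of the 11997 probes for Burma mangrove (Bruguiera gymnorhiza) transcripts on a leaf expression array, chosen because their signal was low after 24 h in sorbitol and not before, and not in salt. A probe entered when the highest of its 6 group means was at least 9.5 on the normalized log2 scale, its sorbitol 24 h mean lay at least 1.2 below its sorbitol 0 h mean, its sorbitol 6 h mean lay less than 0.6 below that mean, and neither NaCl time point lay 0.5 or more below the NaCl 0 h mean. The members were thus chosen by these measured group differences, so the fall in sorbitol and the absence of a fall elsewhere are given below as a description, with no test. Of the 5184 probes that met the brightness condition (called bright below), 3526 met every other condition except the fall, and the 80 members were 2.27% of those. Each probe is a short oligonucleotide to 1 leaf cDNA clone (names starting Bg) or 1 contig of overlapping clones (names starting CL). The probe's first and last base in that sequence end its name. The files pair no probe with a gene name or a role, so members are given by probe name and sequence.

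The plants were grown from seed in pots and were 3 years and 7 months old. The culture water was replaced with 500 mM NaCl in one series and with 1 M sorbitol in the other, and leaves were taken just before the change (0 h), at 6 h and at 24 h (labelled 1 day). Each of the 6 groups had 3 biological replicates, A, B and C, which makes 18 samples, and the NaCl 0 h C sample was hybridised a second time. For NaCl 6 h C and NaCl 24 h C the labels disagree on the replicate number or letter, and the letter in the title, which is used here, matters where results are given by letter. The 0 h leaves of both series came from plants not yet given either solution. Total RNA was amplified, labelled with Cy5 and hybridised to 1-colour arrays, 1 sample per array.

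A mangrove leaf in salt water meets a lowered water potential together with an excess of sodium and chloride ions. Sorbitol, an uncharged sugar alcohol, lowers the water potential of the medium without adding ions, and is used beside NaCl to set the osmotic part of a salt response apart from the ionic part. In leaves, water deficit is generally met by stomatal closure, accumulation of compatible solutes and protective proteins, and lower expression of genes for growth and photosynthesis. Bruguiera keeps most salt out at the root and has no leaf salt glands. A leaf sample holds all leaf cell types, and fewer cells of a type and less RNA per cell cannot be told apart in it.

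Members were not spread evenly over the array, which the rule did not use. Rows 193 to 224 of the 224 rows held 42 of the 80 members (52.5%) and 663 of the 5184 bright probes (12.8%), or 6.33 members per 100 bright probes against 0.84 in rows 1 to 192. In those last rows the median bright probe, member or not, also read below its own sorbitol 0 h mean on all 3 sorbitol 24 h arrays, by -0.32 on A, -0.60 on B and -1.13 on C in log2 units. In rows 1 to 192 the same medians were 0.01, 0.08 and 0.07, but they were not even within that block. In its rows 161 to 176, with 9 members, they were -0.23, -0.25 and -0.20. In its rows 177 to 192, with 7 members, they were -0.40, -0.40 and -0.44. The median change of bright probes from 0 to 24 h in NaCl was 0.11 in the last rows and 0.03 in the others. Bright probes of both row blocks had the same median GC content of 48.6%, and 17.0% and 15.6% of them were contigs.

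**Figure D1:**
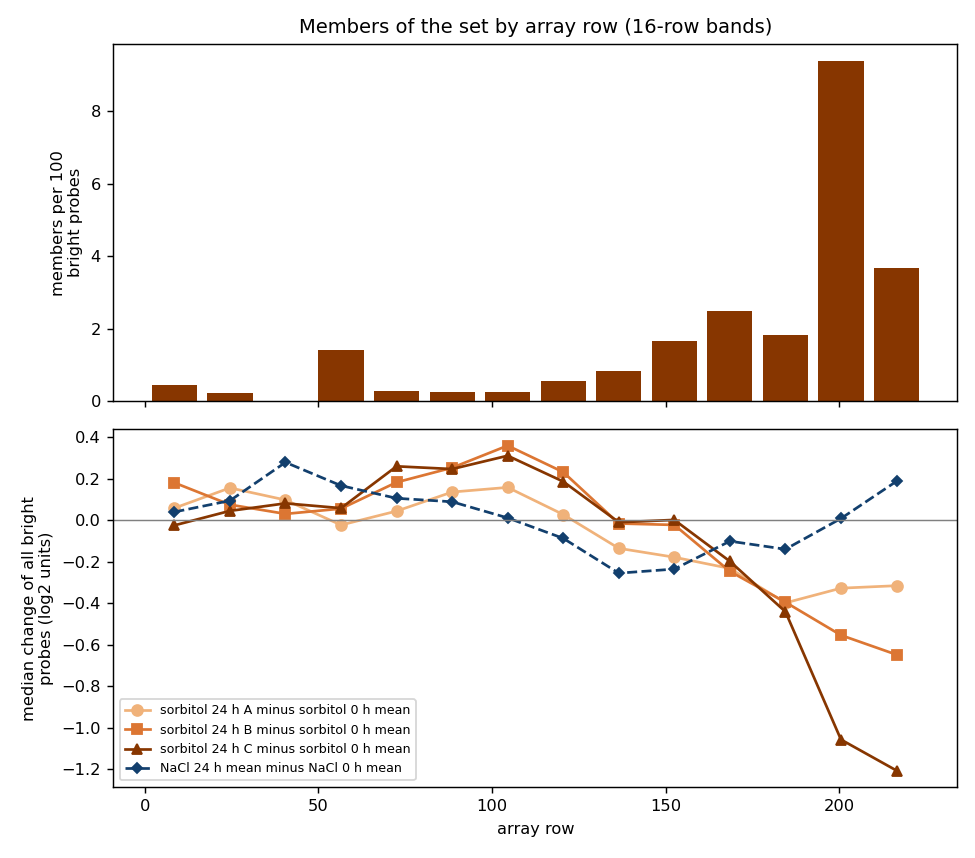
Position of the members on the array, in bands of 16 rows. The upper bars give members per 100 bright probes. The lower lines give the median change of all bright probes in log2 units, for each sorbitol 24 h array against the sorbitol 0 h mean and for the NaCl 24 h mean against the NaCl 0 h mean. Members were densest in the last 2 bands, where array C lay lowest, at -1.06 and -1.21. All 3 sorbitol lines lay below 0 in those bands and also in rows 129 to 144 and 161 to 192.

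Some transcripts were probed more than once with the same sequence at different places, which gives the same target read at different rows. Among 51 pairs of bright probes with identical sequence, the 2 changes from sorbitol 0 h to 24 h differed by a median of 0.18 log2 units in the 40 pairs lying wholly within rows 1 to 192 or wholly within rows 193 to 224. They differed by a median of 0.84 in the 11 pairs with 1 probe in rows 193 to 224 and the other in an earlier row. All 3 pairs that differed by 1 or more were of the second kind. A copy of this kind outside the set was found for 2 members. These 5 probes are shown because 2 sequences give opposite or unequal answers at different rows:
Bg04-02_G05_318_352: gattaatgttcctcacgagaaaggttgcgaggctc
CL779Contig1_366_400: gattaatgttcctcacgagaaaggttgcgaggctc
Bg04-22_K15_350_384: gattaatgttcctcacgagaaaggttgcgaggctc
CL805Contig1_486_520: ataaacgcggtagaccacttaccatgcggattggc
Bg02-07_B21_486_520: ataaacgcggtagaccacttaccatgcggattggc

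The first 3 of these probes have 1 sequence in common, and the last 2 another. The member Bg04-02_G05_318_352, in row 196, read 9.80, 9.997 and 10.44 on sorbitol 0 h arrays A, B and C and 9.41, 9.37 and 7.79 on sorbitol 24 h arrays A, B and C, a change of -1.22. Its copy CL779Contig1_366_400, in row 102, read 9.26, 9.53 and 9.67 at 0 h and 9.76, 9.74 and 10.52 at 24 h, a change of 0.52. The 2 probes for the same bases therefore went in opposite directions, and their sorbitol 24 h values did not overlap. The remaining copy, Bg04-22_K15_350_384 in row 210, changed by -1.01. The member CL805Contig1_486_520, in row 144, read 10.02, 9.85 and 10.15 at sorbitol 0 h and 9.03, 8.55 and 8.60 at 24 h, a change of -1.28. Its copy Bg02-07_B21_486_520, in row 219, changed by -2.13 and stayed outside the set because its sorbitol 6 h mean had already changed by -1.17. For this second sequence both copies were lower at sorbitol 24 h than at 0 h in every sample.

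**Figure D2:**
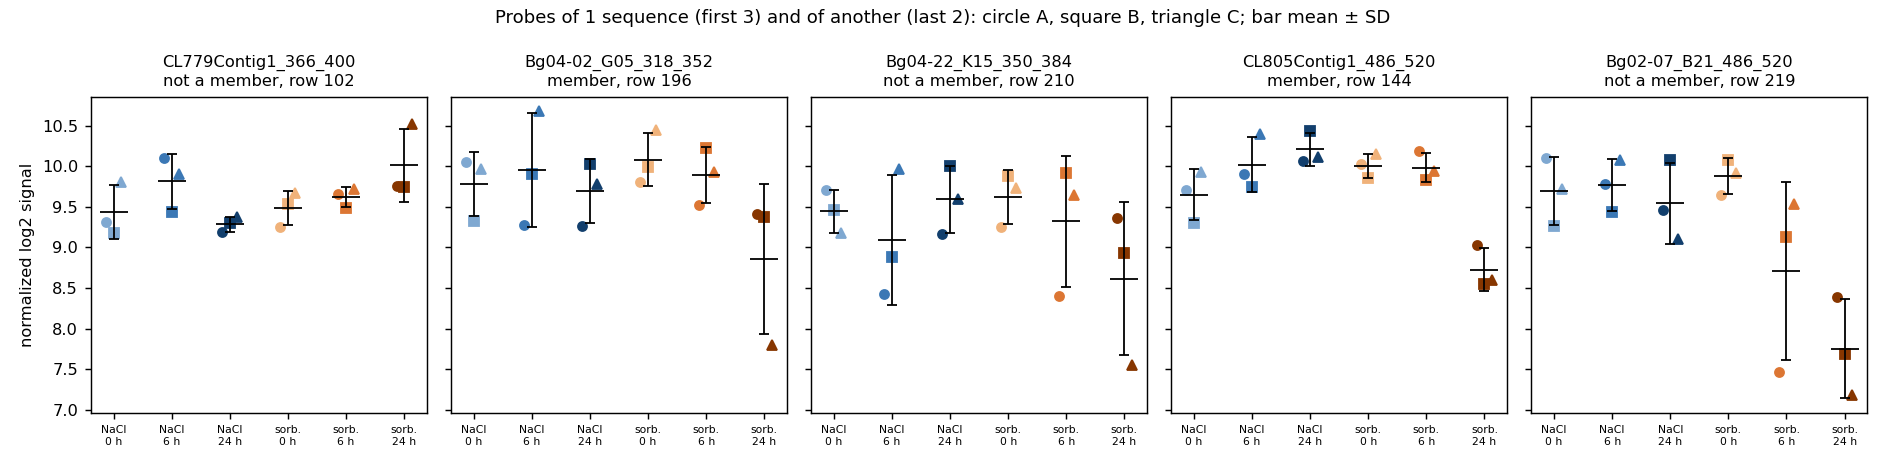
Normalized log2 signal of 5 probes by group, with replicate A as a circle, B as a square, C as a triangle and the bar as mean ± SD (n = 3). The first 3 panels share 1 sequence and the last 2 another. The member in row 196 and the copy in row 210 were lower at sorbitol 24 h than at 0 h, while the copy in row 102 was higher, and both copies of the second sequence were lower.

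Sorbitol 24 h array C gave the lowest values for most of the set. It was the lowest of the 3 for 43 members, B for 36 and A for 1. It was 1 of 4 arrays, all titled C, on which over 1000 probes read 0 (the others were those of sorbitol at 0 and 6 h and of NaCl at 6 h), and 9 members read 0 on it. The median difference of members from their own sorbitol 0 h mean was -0.999, -1.59 and -2.05 on sorbitol 24 h arrays A, B and C. At least 1.2 below that mean lay 29 members on A, 65 on B and 72 on C, against 2.62%, 6.27% and 8.49% of bright probes. Array C read at least 1 below both A and B for 29 members, and 26 of these were in rows 193 to 224. The SD of the 3 sorbitol 24 h values had a median of 0.53 over members and 0.26 over bright probes, whereas at sorbitol 0 h the medians were 0.27 and 0.27. Values with and without array C and by row block follow, and their cause was not tested.

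**Figure D3:**
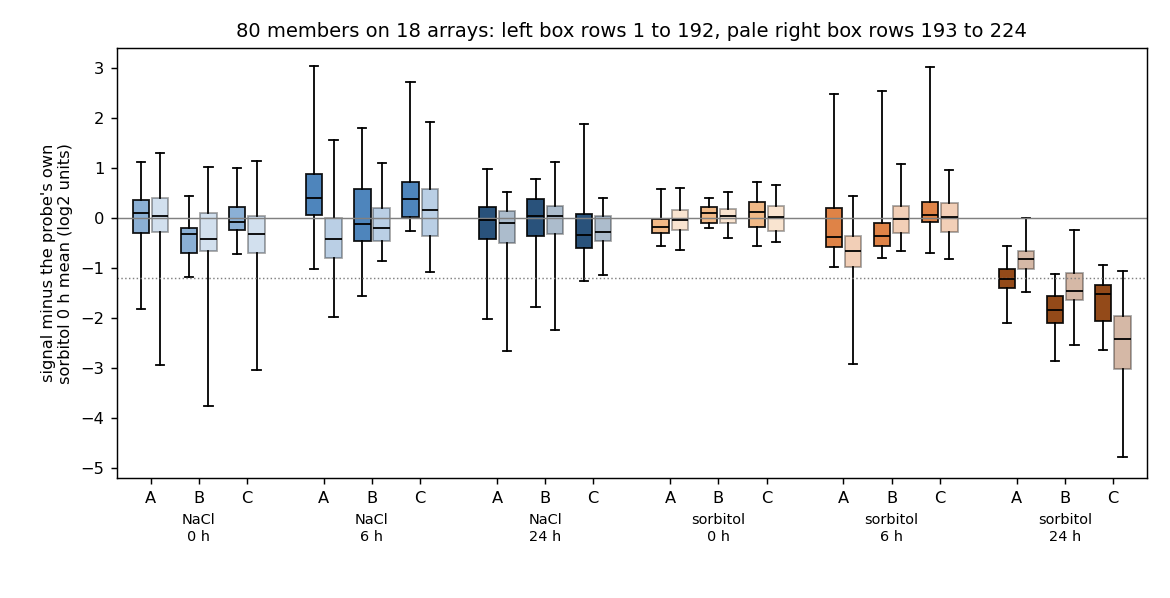
Signal of the 80 members on each of 18 arrays, as the difference from the probe's own sorbitol 0 h mean in log2 units. Left boxes are the 38 members of rows 1 to 192 and pale right boxes the 42 of rows 193 to 224, with the median as a line, the quartiles as the box and the whole range as whiskers, and the dotted line at -1.2. All members lay below 0 on the 3 sorbitol 24 h arrays, and in the last rows array C lay far below A.

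The 38 members in rows 1 to 192 and the 42 in the last rows had nearly the same median change from sorbitol 0 h to 24 h, -1.53 and -1.497. Without array C the medians were -1.52 and -1.18, and 33 of 38 and 20 of 42 members still lay at least 1.2 below 0 h. The whole rule was met without array C by 31 of the 38 and 18 of the 42. After the median deviation of all mangrove probes in local tiles of 16 rows and 8 columns, each probe taken against its own mean over the 18 arrays, was removed from each array, 33 of the 38 and 14 of the 42 met the rule, with median changes of -1.49 and -1.08. All 38 and 36 of the 42 had every sorbitol 24 h value below every sorbitol 0 h value. The rule used that contrast and no share over bright probes is given, so nothing is read from these 2 counts. With sorbitol 24 h array A left out, 156 probes met the rule, 79 of them members. On arrays A, B and C the members' medians against sorbitol 0 h were -1.22, -1.84 and -1.53 in rows 1 to 192 and -0.81, -1.45 and -2.42 in the last rows, so that A was the highest in both blocks.

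When any 1 of the 18 samples was left out in turn, 14 members met the rule every time, and 13 of these also met it after the local centring. This choice was made after the values were seen and is a description of stability, not a test. All but 1 of the 13 were in rows 1 to 192, the exception being CL70Contig1_705_739 in row 207. The 14th, Bg04-29_N03_571_606 in row 204, changed by -1.36 and by -0.76 after the centring. In every one of the 14, the 3 sorbitol 24 h values lay below all 15 other values. These 13 are printed because they met the rule under all of these settings, although in CL70Contig1_705_739 the 3 sorbitol 24 h values were far apart (SD 1.85, n = 3):
CL70Contig1_705_739: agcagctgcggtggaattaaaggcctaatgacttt
Bg02-07_J12_74_108: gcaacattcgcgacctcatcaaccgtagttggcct
Bg02-06_O03_449_483: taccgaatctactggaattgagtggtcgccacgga
CL134Contig1_381_415: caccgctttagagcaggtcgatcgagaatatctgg
Bg02-03_C16_196_230: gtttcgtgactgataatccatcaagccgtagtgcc
CL237Contig1_646_684: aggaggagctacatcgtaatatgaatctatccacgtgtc
CL1210Contig1_121_155: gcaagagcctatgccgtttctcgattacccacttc
Bg05-18_N05_584_619: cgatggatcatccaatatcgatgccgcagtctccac
CL186Contig1_555_589: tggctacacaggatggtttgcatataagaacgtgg
CL59Contig1_342_376: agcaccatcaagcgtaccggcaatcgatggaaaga
CL914Contig1_321_355: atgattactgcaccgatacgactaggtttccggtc
Bg05-10_K06_151_185: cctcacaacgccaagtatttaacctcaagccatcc
CL543Contig1_394_429: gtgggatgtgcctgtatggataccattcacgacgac

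CL70Contig1_705_739 had the lowest measured change of the set. It read 12.19, 11.60 and 11.93 on NaCl 0 h arrays A, B and C, 11.39, 12.24 and 12.10 at NaCl 6 h and 11.93, 12.53 and 12.61 at NaCl 24 h. In the sorbitol series it read 12.31, 12.75 and 12.37 at 0 h, 11.75, 12.31 and 12.38 at 6 h and 11.38, 9.95 and 7.71 at 24 h. Every sorbitol 24 h array was below every other array, narrowly for A, which was next to NaCl 6 h A, and clearly for B and C. It was above the 95th percentile of the negative controls on 2 of the 3 sorbitol 24 h arrays, so the measured mean change of -2.80 includes an array at background level. That change was -1.81 without array C and -2.19 after local centring.

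Bg02-07_J12_74_108, in row 173, was lower by similar amounts on all 3 arrays. It read 13.78, 13.54 and 12.96 at sorbitol 0 h, 13.36, 12.63 and 13.18 at 6 h and 11.78, 10.79 and 11.16 at 24 h, and between 13.28 and 14.54 on all 9 NaCl arrays. The 24 h values were the 3 lowest of the 18, and the mean change was -2.18, or -2.14 without array C. CL186Contig1_555_589, in row 142, was of similar brightness, with 13.44, 13.69 and 13.77 at sorbitol 0 h and 12.26, 11.65 and 12.17 at 24 h, and its other 12 values lay between 13.10 and 14.22. Its change was -1.61 and its NaCl 24 h mean differed from NaCl 0 h by 0.00.

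CL134Contig1_381_415, in row 155, read 11.48, 12.17 and 12.47 at sorbitol 0 h and 10.64, 9.82 and 9.92 at 24 h. Its mean was 0.41 above the 0 h mean at sorbitol 6 h and 0.40 above at NaCl 6 h, so that the late value came after a 6 h level slightly above the start in both series. Bg02-03_C16_196_230, in row 191, read 9.82, 9.97 and 9.64 at sorbitol 0 h and 8.36, 7.96 and 7.64 at 24 h, a measured change of -1.82 with 1 of the 3 arrays at 24 h above the negative controls, and all other values lay between 9.59 and 10.51. CL914Contig1_321_355, in row 109, read 11.49, 11.56 and 11.16 at sorbitol 0 h and 9.76, 9.75 and 9.98 at 24 h. The 3 values at 24 h were close together (SD 0.13, n = 3), and its NaCl 24 h mean was 0.84 above NaCl 0 h, with array C at 13.28 against 11.93 and 12.04. The remaining probes of the 13 that are not described elsewhere, CL1210Contig1_121_155, Bg05-18_N05_584_619, CL59Contig1_342_376 and Bg05-10_K06_151_185, changed by -1.71, -1.61, -1.59 and -1.53.

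**Figure D4:**
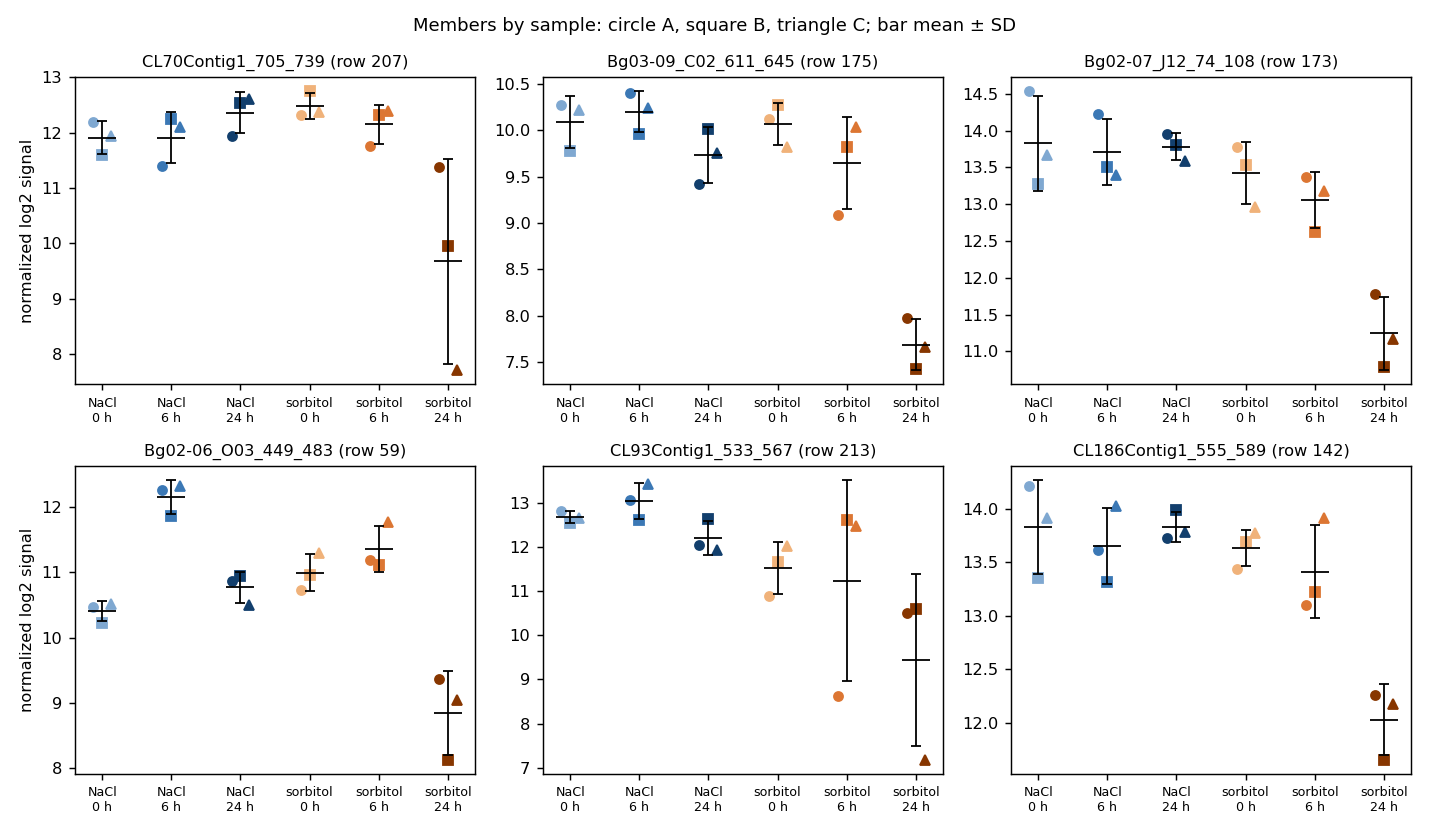
Normalized log2 signal of 6 members by group, with replicate A as a circle, B as a square, C as a triangle and the bar as mean ± SD (n = 3). In CL70Contig1_705_739 and CL93Contig1_533_567, of the last rows, the 3 sorbitol 24 h values were spread widely with C the lowest (SD 1.85 and 1.96). In the other 4 they lay closer together (SD 0.28 to 0.64).

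The 10 members with the lowest measured changes lay between -2.80 and -2.06, and 6 of them were in rows 193 to 224. Bg03-09_C02_611_645, in row 175, read 10.12, 10.27 and 9.82 at sorbitol 0 h and 7.97, 7.42 and 7.66 at 24 h, and was above the 95th percentile of the negative controls on none of the 3 arrays at 24 h. Its measured change of -2.39 therefore includes no 24 h signal above background, and only a bound can be given. Against the lowest signals above that percentile on the same arrays, its sorbitol 24 h signal was at least 3.37-fold lower than at 0 h. CL210Contig1_737_772, in row 182, read 11.46, 11.85 and 12.00 at 0 h and 10.01, 9.36 and 9.33 at 24 h, a change of -2.20. In both the 24 h values were below all 15 others. CL284Contig1_227_262, in row 193, read 12.83, 12.15 and 9.18 on sorbitol 24 h arrays A, B and C after 13.52, 13.64 and 13.93 at 0 h, and its change of -2.31 became -1.21 without array C. Bg05-12_D20_360_394, in row 202, read 12.13, 11.39 and 9.09 at 24 h after 12.94, 13.10 and 12.84 at 0 h, and its change of -2.09 became -1.201. CL93Contig1_533_567, in row 213, read 10.51, 10.61 and 7.18 at 24 h after 10.89, 11.68 and 12.04 at 0 h, and its change of -2.10 became -0.97. In these 3 array C was the lowest by a wide margin. In CL93Contig1_533_567 sorbitol 6 h array A, at 8.62 against 12.62 and 12.49 on B and C, also lay below the 24 h values of A and B. Bg05-12_P05_268_307 and Bg02-08_I17_708_742, in rows 195 and 209, changed by -2.06 each and by -1.64 and -1.58 without array C. CL93Contig1_533_567 and Bg02-08_I17_708_742 were above the negative controls on 2 of the 3 arrays at 24 h.

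Over all 80 members the median change was -1.52 (range -2.80 to -1.203), a 2.87-fold lower signal, against -0.01 for bright probes. The change was -2 or lower in 10 members, between that and -1.5 in 35 and smaller in the other 35. Levels ran from 9.45 to 15.63 at sorbitol 0 h (median 11.32) and from 7.68 to 14.31 at sorbitol 24 h (median 9.59). In 74 members the 3 sorbitol 24 h values lay below the 3 sorbitol 0 h values, and in 6 the groups overlapped. In 64 they lay below the 6 values of both 0 h groups and in 51 below all 15 others. The rule chose members by the sorbitol 24 h and 0 h means, so nothing is read from these overlap counts. No share over bright probes is given for them. At sorbitol 24 h 49 members were still above the 95th percentile of the negative control spots on all 3 arrays, 25 on 2 arrays, 4 on 1 and 2 on none. The low level was therefore still a measured signal for most members, and the changes of the other 31 include at least 1 array at background level. In the fit across 8642 probes, 71 of the 80 passed as lower at sorbitol 24 h than at 0 h (limma, Benjamini-Hochberg adjusted p under 0.05), where 4.65% of all tested probes did. The rule used that contrast, so nothing is read from this count.

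The brightest members stayed among the strongest signals of the array. Bg03-09_I02_223_257, in row 165, read 15.52, 15.90 and 15.46 at sorbitol 0 h and 14.72, 14.06 and 14.16 at 24 h, and between 14.58 and 15.98 on the other 12 arrays. It was at the scanner's ceiling on sorbitol 0 h B and NaCl 0 h A, so its change of -1.31 rests on a 0 h value that may have been higher. All 3 values at 24 h were below those of sorbitol 0 h, and array A overlapped NaCl 6 h. Bg03-03_H08_456_490, in row 172, read 14.46, 14.84 and 14.95 at sorbitol 0 h and 13.57, 13.31 and 13.72 at 24 h, and was highest at NaCl 24 h with 15.55, 15.42 and 15.75. CL329Contig1_297_331, in row 197, read 14.14, 14.00 and 10.48 at sorbitol 24 h after 14.42, 14.61 and 14.46 at 0 h, and its change of -1.62 was -0.43 without array C. Bg04-10_L03_572_610, also in row 197, changed by -1.72, and by -1.22 without array C. The first pair was lower on all 3 arrays alike, and CL329Contig1_297_331 mostly on C.

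At 6 h in sorbitol the members' median change was -0.28 (range -0.60 to 2.68). Of the 80 means 61 were below 0 h, against 50.4% of bright probes. The rule's limits placed every 6 h mean above the 24 h mean. The rule also used the sorbitol 0 h mean, so the count of 61 is a description. Bg05-07_E17_337_371, CL212Contig1_601_635 and Bg05-12_N20_76_110 had the lowest 6 h changes, -0.60, -0.57 and -0.54, next to the limit set by the rule. Bg05-12_N20_76_110, in row 57, read 11.55, 11.39 and 11.72 at 0 h, 10.67, 10.93 and 11.43 at 6 h and 10.26, 9.43 and 10.25 at 24 h. It was the lowest at 24 h on every array, with the 6 h values between. In 45 members the 3 other changes, those at 6 h in either series and at 24 h in NaCl, were all within 0.5 of 0. The rule already bounded these 3 changes from below, and no share over bright probes is given, so nothing is read from this count.

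In NaCl the members' median change was 0.18 at 6 h (range -0.50 to 2.89) and 0.01 at 24 h (range -0.48 to 1.61). The largest changes at NaCl 24 h were in rows 203 and 214. Bg05-16_J23_155_189 read 9.90, 9.08 and 9.79 at NaCl 0 h, 11.81, 12.92 and 12.72 at 6 h and 10.18, 10.60 and 12.83 at 24 h. At sorbitol 0 h, also untreated, it read 12.69, 13.35 and 12.45, above every NaCl 0 h value, and at sorbitol 24 h 12.50, 11.44 and 9.16. The 2 untreated groups thus differed by 3.24, more than the fall of -1.80, and its sorbitol 24 h mean was above its NaCl 0 h mean. Bg05-23_I20_641_675, with a NaCl 24 h change of 0.90, read 9.79, 10.36 and 11.49 there and 11.28, 9.99 and 7.18 at sorbitol 24 h, so that both groups were spread widely. Bg04-12_B23_380_415 read 8.996, 8.79 and 8.72 at NaCl 0 h and 9.93, 9.95 and 9.82 at NaCl 24 h, with no overlap, and 8.94, 8.44 and 7.18 at sorbitol 24 h. For Bg05-23_I20_641_675 and Bg04-12_B23_380_415 the 7.18 on sorbitol 24 h array C was a scanned reading of 0. Their sorbitol 24 h means and spread therefore include an array at background level.

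The untreated groups of the 2 series can be set side by side for all members. Sorbitol 0 h was above NaCl 0 h in 51 of the 80, by a median of 0.17 (range -1.15 to 3.24). For bright probes these were 53.4% and 0.04. Against the NaCl 0 h mean the sorbitol 24 h mean was lower in 78 members, by a median change of -1.36, and in 51.8% of bright probes. Against NaCl 24 h it was lower in all 80, with a median difference of -1.46, and in 49.8% of bright probes. The rule used the sorbitol 0 h and 24 h means and bounded the NaCl means, so these counts are a description. Taken as the difference between the 2 responses at 24 h, 30 members passed (limma, adjusted p under 0.05), all with the NaCl response higher, where 0.995% of tested probes passed in that direction. The rule used both responses, so this count too is a description. Leaving out 1 array moved it to 8 (the B array of NaCl 0 h), 9 (that of either series at 24 h), 15 (that of sorbitol 0 h) or 16 (the A array of sorbitol 0 h or of NaCl 24 h).

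The one comparison tested here was NaCl 24 h with NaCl 6 h. The rule did not set its direction, although it put a lower limit on both time points against NaCl 0 h. Of the 80 members 8 were lower at 24 h than at 6 h and 0 were higher (limma, adjusted p under 0.05), where 1.11% of the 8642 tested probes were lower and 1.7% higher. At an unadjusted limma p under 0.05, 11 of the 80 members and 1111 of the 8642 tested probes passed, which are similar shares. All 8 were in rows 53 to 168, none in the last rows. The NaCl medians of bright probes varied by row, as given above, and with local tile medians removed 10 members passed. The median difference was -0.14 over members and -0.01 over all tested probes, and 52 of 80 members and 51.1% of all probes were below 0. Without NaCl 24 h C 4 members passed and without NaCl 6 h A 5, and with median scaling in place of quantile normalization 2 passed.

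In 7 of the 8 the NaCl 6 h mean was at least 0.9 above NaCl 0 h, so that the mean was high at 6 h and near the start at 24 h, the first of which was not tested. The 3 with the largest difference whose sequences are not shown above, CL543Contig1_394_429 apart, were these:
CL286Contig1_635_669: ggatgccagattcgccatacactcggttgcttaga
CL963Contig1_885_919: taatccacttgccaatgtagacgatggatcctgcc
Bg03-09_J03_607_641: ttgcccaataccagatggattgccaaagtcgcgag

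CL286Contig1_635_669, in row 168, read 11.96, 11.01 and 11.42 at NaCl 0 h, 14.61, 13.31 and 14.28 at 6 h and 11.30, 11.41 and 10.42 at 24 h. In sorbitol it read 11.26, 11.75 and 11.69 at 0 h, 14.05, 14.10 and 14.58 at 6 h and 10.39, 9.85 and 9.51 at 24 h. The 6 h values stood above all others in both series, and sorbitol 24 h alone lay below every other array. The difference between NaCl 24 h and 6 h was -3.02 (SE 0.35, limma adjusted p = 1.08e-05, n = 3 per group).

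CL543Contig1_394_429, in row 54, had the same order, with 12.06, 11.90 and 12.46 at NaCl 0 h, 14.25, 13.93 and 14.00 at 6 h and 12.32, 12.27 and 11.82 at 24 h. In sorbitol it read 11.89, 12.00 and 12.48, then 13.18, 12.94 and 13.86, then 10.57, 10.97 and 10.53. Its NaCl 24 h mean was the same as the NaCl 0 h mean to the second decimal, and its sorbitol 24 h values were below all 15 others. The difference between NaCl 24 h and 6 h was -1.92 (SE 0.27, limma adjusted p = 0.00011). These were the 2 members with a change of at least 1 at 6 h in both series.

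CL963Contig1_885_919, in row 95, read 11.77, 11.76 and 12.11 at NaCl 6 h and 9.73, 9.14 and 9.99 at NaCl 24 h, a difference of -2.26 (SE 0.29, limma adjusted p = 3.36e-05). In sorbitol its mean was 0.60 above 0 h at 6 h and had changed by -1.23 at 24 h. Bg03-09_J03_607_641, in row 71, read 11.40, 10.65 and 10.53 at NaCl 6 h and 9.97, 9.36 and 8.75 at 24 h, a difference of -1.501 (SE 0.31, limma adjusted p = 0.0073). For both, the 2 NaCl groups did not overlap. Bg02-06_O03_449_483, in row 59, one of the 13 above, read 12.26, 11.85 and 12.32 at NaCl 6 h after 10.47, 10.22 and 10.51 at 0 h, and 10.86, 10.94 and 10.50 at 24 h. In sorbitol it read 10.72, 10.96 and 11.29, then 11.19, 11.10 and 11.76, then 9.37, 8.13 and 9.04, so that the high 6 h level was in NaCl and the low 24 h level in sorbitol. Its NaCl difference was -1.38 (limma adjusted p = 0.0090). The other 3, CL766Contig1_681_715, Bg03-09_J10_665_699 and CL237Contig1_646_684, differed by -1.44, -1.40 and -1.26 (limma adjusted p = 0.0080, 0.026 and 0.037).

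**Figure D5:**
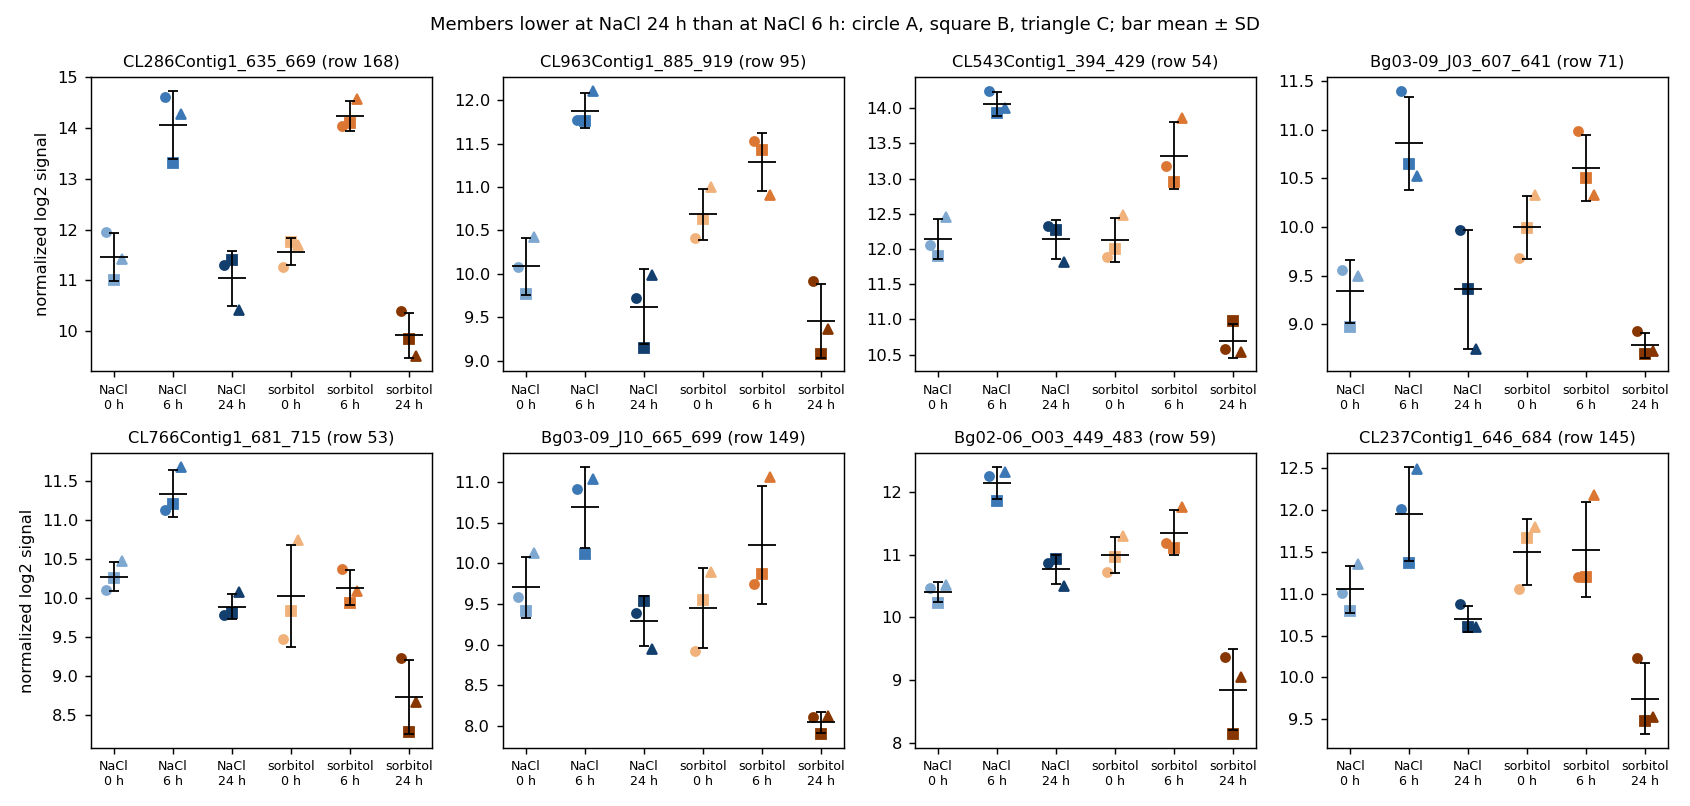
Normalized log2 signal of the 8 members that were lower at NaCl 24 h than at NaCl 6 h, by group, with replicate A as a circle, B as a square, C as a triangle and the bar as mean ± SD (n = 3). The NaCl 6 h mean stood above those of NaCl 0 h and 24 h in each, and sorbitol 24 h had the lowest mean in each. The rule and the choice of these 8 set the NaCl order, and the rule used the sorbitol 24 h mean, so both are a description.

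To see the sorbitol change in samples the rule had not used, the rule was applied to 2 replicate letters and the sorbitol change from 0 h to 24 h was read in the third. With C left out, 42 probes were chosen (26 of them members), of which 38.1% were in rows 193 to 224, and in C their median change was -1.33, with 40 below 0 and 23 (54.8%) at -1.2 or lower, against 8.30% of bright probes. With B left out, 74 were chosen (48 members), of which 55.4% were in rows 193 to 224, and in B their median was -1.26, with 41 (55.4%) at -1.2 or lower against 7.03%. With A left out, 214 were chosen (76 members), of which 69.6% were in rows 193 to 224, and in A their median was -0.53, with 30 (14.0%) at -1.2 or lower against 3.47%. Among the chosen probes of rows 1 to 192 alone, the counts at -1.2 or lower were 15 of 26 in C, 22 of 33 in B and 16 of 65 in A (57.7%, 66.7% and 24.6%, against 3.34%, 4.50% and 2.59% of the bright probes of those rows). In rows 193 to 224 they were 8 of 16 in C, against 40.5% of bright probes there, 19 of 41 in B (46.3% against 24.7%) and 14 of 149 in A (9.40% against 9.37%). In rows 1 to 192 the share at -1.2 or lower was above that of bright probes in each left-out letter. In the last rows the share in A was nearly that of bright probes. Rows 1 to 192 include rows 161 to 192, where bright probes read low on every sorbitol 24 h array (band medians from -0.44 to -0.20). Chosen and bright probes were not matched by row within that block, so whether the excess goes beyond array position was not tested. All letters were also normalized together, so the left-out letter was not fully separate.

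Values near the threshold show how fine the boundary was. The last members inside were Bg05-18_G04_33_67 and Bg05-15_B17_369_403 with -1.21 each and Bg01-07_D01_65_99 with -1.203, and the first probes outside were Bg04-13_A12_14_51 and CL494Contig1_152_186 with -1.197 and -1.195 and Bg05-08_N11_481_515 with -1.19. All 6 were in rows 197 to 223. Bg01-07_D01_65_99 read 13.95, 13.84 and 13.90 at sorbitol 0 h and 13.89, 13.65 and 10.54 at 24 h, so that its change was -0.13 without array C. CL494Contig1_152_186, outside, had the same form, with 9.73, 9.75 and 7.77 at 24 h after 10.34, 10.24 and 10.25.

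The members did not share sequence with each other. All 80 sequences were distinct, and no member had a run of 20 bases in common with another member. With probes outside the set, 3 members did: the 2 described above and Bg04-12_B23_380_415, which shared 34 bases with Bg05-23_J19_328_363, whose change was -0.62. A member of a cluster with more than 1 contig, CL416Contig2_384_419, stood beside CL416Contig1_772_807, a dim probe with a mean of 6.95 at sorbitol 0 h and a change of 0.15. Contigs made up 29 of the members (36.2%), 15.8% of bright probes and 9.502% of all probes, and the share was 17 of 38 in rows 1 to 192 and 12 of 42 in the last rows. The members' median GC content was 48.6%, as for bright probes. Their probes began at a median of base 380.5 of the clone or contig, against 273 for bright probes.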

How the data were processed

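Leaf RNA of 3 replicates in each of 6 groups, with NaCl 0 h C hybridised again, was measured on 19 arrays of 12544 spots, of which 11997 were mangrove probes and 70 negative controls. Each deposited scanner file lists, per the file headers, a linear intensity per spot as foreground mean and as foreground median, without a local background. No source used here names the scanner software. Over arrays the median intensity of a probe lay between 52.9 and 1729, and the number of arrays limits the precision. The authors' deposited table was used only as an alternative: its columns for sorbitol 24 h B and C and for the repeat array equal the scanned medians (1 probe of the repeat array apart), while the other 16 share a median of 521.

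Foreground mean plus 50 was taken to log2 and quantile-normalized over the 18 arrays, the repeat array left out. Probes above the 95th percentile of the negative controls on at least 3 of 18 arrays (8642, all 80 members among them) entered 1 limma fit (lmFit and eBayes, limma 3.58.1, R 4.3.3) of 6 group means with 12 residual degrees of freedom, called at a Benjamini-Hochberg adjusted p under 0.05. The members, lists and named probes were chosen with earlier results of these data known. Probes named are the 10 largest falls, the 4 brightest at sorbitol 0 h, the 3 highest and 3 lowest sorbitol 6 h changes, the 3 highest NaCl 24 h changes, the 3 on either side of the threshold, the 4 largest calls of NaCl 24 h against 6 h, and probes sharing sequence or cluster. The 13 probes that met the rule without each sample and after local centring, the remaining calls and the split by array row were added after values were seen. Gene lists were not run because no probe is paired with a gene. Alternatives were background correction, spot median, scaling, offset, the deposited table, the repeat array, the filter, the fit's spread, blocks, the control group, single samples and local tiles (the last added after seeing the data). Replicate letters were not taken to pair samples, and the check is given with the alternatives.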

Additional observations from a re-analysis of the deposited data

Results flagged for a closer look

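The difference between the NaCl and the sorbitol responses at 24 h passed in 30 of the 80 members (limma, adjusted p under 0.05 for the interaction contrast), all with the NaCl response higher, against 0.995% of all tested probes in that direction. The members were chosen by both responses, so the count describes the selection. It was 23 after local centring, 11 without the 4 arrays on which over 1000 probes read 0, 4 with median scaling and 0 with the deposited table, and ran from 8 to 42 when 1 sample was left out. Groups of 3 were not screened for single outlying values.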

How the results depend on the processing

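The median change of the members from sorbitol 0 h to 24 h stayed below 0 under every alternative run, from -1.83 with the deposited table to -1.21 without the 4 arrays on which over 1000 probes read 0. The rule chose the members by that change in these same samples, so its sign here is a description and not a test. The other 4 results are counts: 80 probes met the rule, and 8, 71 and 30 members passed for NaCl 24 h against 6 h, for sorbitol 24 h against 0 h and for the difference of responses. In that order they were 122, 2, 40 and 4 with median scaling and 288, 3, 27 and 0 with the deposited table (2 of whose sorbitol 24 h columns are not normalized). Without the 4 arrays they were 40 (only 25 of them members), 6, 37 and 11. With NaCl 0 h as the control of the sorbitol series 58 probes met the rule, only 41 of them members. With that control 62 members passed as lower at sorbitol 24 h, and the difference passed in 60. Leaving out 1 sample at a time gave 59 to 156 probes meeting the rule, and 4 to 8, 51 to 78 and 8 to 42 members passing. With normexp, which could not be fitted on those 4 arrays, with spot medians, offset 16, the averaged repeat array, no filter, a trended robust fit or a term for the 4 arrays, every count stayed within 1.5 times the reported one. With local tile medians removed, they were 60 (47 of them members), 10, 60 and 23. The cause of these differences was not tested.

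The replicate block (letter A, B or C in the fit) gave 9, 71 and 35. Samples of the same letter in different groups correlated by a median of 0.11 in their deviations from the group means (-0.29 to 0.48). For samples of different letters in different groups the median was lower, at -0.05 (-0.52 to 0.36). The ranges overlapped widely, and letters were not taken as a pairing.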

Other observations

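The repeat hybridisation of NaCl 0 h C differed from the first by a median of 0.16 log2 units over members and 0.20 over bright probes, and by at most 1.52 in a member.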
